A study of Mus musculus with 18 samples.

Results

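Chondrocytes carrying the cartilage proteoglycan transcript Acan, and not yet carrying the transcripts of the hypertrophic zone, were taken from the stromal single-cell libraries of perinatal mouse bone marrow. Members were chosen by their measured counts of Acan, Ihh and Col10a1. A cell was a member when it was typed as stromal, held 5 or more UMIs (unique molecular identifiers, each standing for 1 captured transcript) of Acan, and held fewer than 2 UMIs summed over Ihh and Col10a1. This gave 15078 of the 28952 stromal cells of the 3 perinatal stages, out of 56201 cells in the whole series. The members numbered 3647 of 8226 stromal cells at E16.5 (44.3%, exact 95% interval 43.3 to 45.4), 4255 of 6642 at E18.5 (64.1%, 62.9 to 65.2) and 7176 of 14084 at P0 (51.0%, 50.1 to 51.8). These shares follow from the rule and can also be set by the sort, the tissue digestion and the depth, so they are given as a description. They changed most when every cell was thinned to 3000 UMIs before the rule was applied, to 21.5%, 50.4% and 35.2%.

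The study charted the blood progenitors and the stroma of bone marrow before birth, at birth and in adults with CITE-Seq, which reads RNA and antibody-bound surface proteins from the same droplets. The stromal libraries used here were made from CD45-Ter119- cells of C57B6/J mice at embryonic day 16.5, embryonic day 18.5 and postnatal day 0, with 1 mRNA library and 1 antibody (ADT) library per stage. The labels name no engineered allele and no treatment. Cells of several animals were pooled after collagenase digestion of the skeleton without the head, so the cartilage came from limbs, vertebrae and ribs alike and a cell's position was not recorded. With 1 library per stage a difference between stages had no replicate check. Values for a stage are therefore given with exact 95% intervals that cover counting error only, and no p-value is given for a stage.

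The growth plate is the cartilage that lengthens bones. Round resting cells near its end feed columns of flat, dividing chondrocytes, which leave the cell cycle, enlarge into hypertrophic cells and give way to bone and marrow. The transcription factor Sox9, with Sox5 and Sox6, drives the genes of the cartilage matrix, of which type II collagen (Col2a1) and aggrecan (Acan) are the main products. Ihh, made by prehypertrophic cells, and PTHrP (Pthlh), made by resting cells, control how long chondrocytes keep dividing, and Col10a1 marks the hypertrophic cells that the rule left out. Near the joint, chondrocytes make the lubricant Prg4 and give rise to the articular surface.

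The members were deeply sequenced. Their median UMI count per cell was 14572 at E16.5, 17168 at E18.5 and 16638.5 at P0, and their summed UMIs were 57830435, 78660730 and 127209869. Acan counts per member had a median of 19, 37 and 26, a lowest value of 5 set by the rule, and a highest value of 162, 242 and 267. Among the members, 16 cell barcodes occurred in more than 1 library, in 32 cells. No doublet caller was run, and the filter on cells with the highest UMI and gene counts was that of the study.

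At the lower edge of the Acan rule, 138 members at E16.5, 104 at E18.5 and 356 at P0 had exactly 5 UMIs, and 171, 117 and 417 stromal cells with 4 UMIs stayed outside. Col2a1 was 9391 CPM (UMIs of a gene over all UMIs of the cells, on the usual CPM scale) in the cells at 5 UMIs and 7446 CPM in those at 4 at E16.5, 7083 and 5336 CPM at E18.5, and 10332 and 10481 CPM at P0. At the other edge, 266, 414 and 601 members held 1 UMI of Ihh or Col10a1 and 68, 93 and 109 cells stood just outside with 2. Pth1r, the PTHrP receptor that increases before hypertrophy, was 172, 129 and 158 CPM in the members with 1 such UMI and 295, 312 and 293 CPM in the cells with 2. It was 70.7, 79.2 and 82.5 CPM in the members with none, so the members grade into the cells that were left out.

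The chondrocyte markers that the rule did not use were present in nearly every member. Col2a1 had no UMI in 2 members at E16.5 and in 0 members at E18.5 and at P0, and Sox9 had none in 144 (3.95%), 159 (3.74%) and 405 (5.64%). Free RNA in the droplets was gauged in endothelial cells, taken as stromal cells with 3 or more UMIs of Cdh5 that were not members. Of these, 69, 82 and 167 reached 3000 UMIs. Cells with Cdh5 that met the Acan rule were thus left out of this gauge, so its values can be too low. In the cluster coded ECs, 6, 3 and 26 cells met the rule. With every cell thinned to 3000 UMIs, Sox9 was found in 72.8% of members at E16.5, 75.5% at E18.5 and 70.0% at P0, against 7.25%, 9.76% and 7.19% of endothelial cells. Col2a1 was found in 98.7%, 99.5% and 99.7% of members, but also in 42.0%, 92.7% and 97.6% of endothelial cells, so detection of Col2a1 alone did not tell a chondrocyte at birth. Its level did: Col2a1 stood at 19626, 40937 and 39249 CPM in members and at 824, 1637 and 1993 CPM in endothelial cells.

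The label of growth plate chondrocytes held only in part. Cells in clusters whose deposited codes start with C and a digit made up 3331 (91.3%) of the members at E16.5, 3663 (86.1%) at E18.5 and 5550 (77.3%) at P0. Clusters with codes starting with F held 6.94%, 11.7% and 15.4%, and how the codes map onto the cluster names of the study was not worked out here. In the F2 cluster, 21.4% of the cells at E16.5, 57.2% at E18.5 and 55.1% at P0 met the rule. Cells with transcripts of the joint surface and of fibrous tissue were among the members, as described next, and the members are called Acan-positive chondrocytes below.

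After thinning to 3000 UMIs the members were put into 3 sets, first by detection of Prg4, the joint lubricant, and then, without Prg4, by detection of Ucma, a small secreted protein of resting and early columnar cartilage. Prg4 was found in 161 members at E16.5 (4.43%), 597 at E18.5 (14.2%) and 1889 at P0 (27.3%), against 1.45%, 2.44% and 9.58% of endothelial cells. Ucma was found in 66.7%, 85.3% and 85.6% of members and in 4.35%, 20.7% and 28.7% of endothelial cells. Free RNA could thus place more cells in the Ucma set at the later stages and in the Prg4 set at P0. Members with Ucma and without Prg4 made up 64.4%, 74.8% and 63.0%. Members with neither made up 31.2%, 11.0% and 9.63%.

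These sets differed in their matrix, which is a description because the same counts defined them. The Prg4 set was not without Ucma, which stood at 1125, 2338 and 2623 CPM in it and at 1956, 4146 and 4378 CPM in the Ucma set. In the Prg4 set at P0, Matn1, a matrilin of columnar cartilage, was 467 CPM against 1466 CPM in the Ucma set, and the small proteoglycan Epyc was 341 against 803 CPM. Creb5, a transcription factor that drives Prg4 in articular cartilage, was 237 against 43.8 CPM. The joint factor Gdf5 was 22.3 against 12.9 CPM, the Wnt inhibitor Wif1 was 834 against 257 CPM, and the secreted protein Cytl1 was 1267 against 700 CPM. The same direction was found at E16.5 for Matn1 (281 against 1190 CPM), Creb5 (162 against 26.3 CPM) and Wif1 (436 against 167 CPM).

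The set with neither gene had other leading transcripts at birth than at E16.5. Which cells it held could depend on the Ucma background given above, and this was not tested. At E16.5 it had 15018 CPM of Col2a1, 1820 CPM of Col1a1, the type I collagen of bone and fibrous tissue, and 1705 CPM of Matn1. At P0 it had 10622 CPM of Col2a1, 12463 CPM of Col1a1, 2840 CPM of the perichondrial protein Postn and 493 CPM of the tendon protein Tnmd, while Matn1 stood at 416 CPM. Their Sox9 level, 402 CPM, lay above the 28.4 CPM of endothelial cells.

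**Figure D1:**
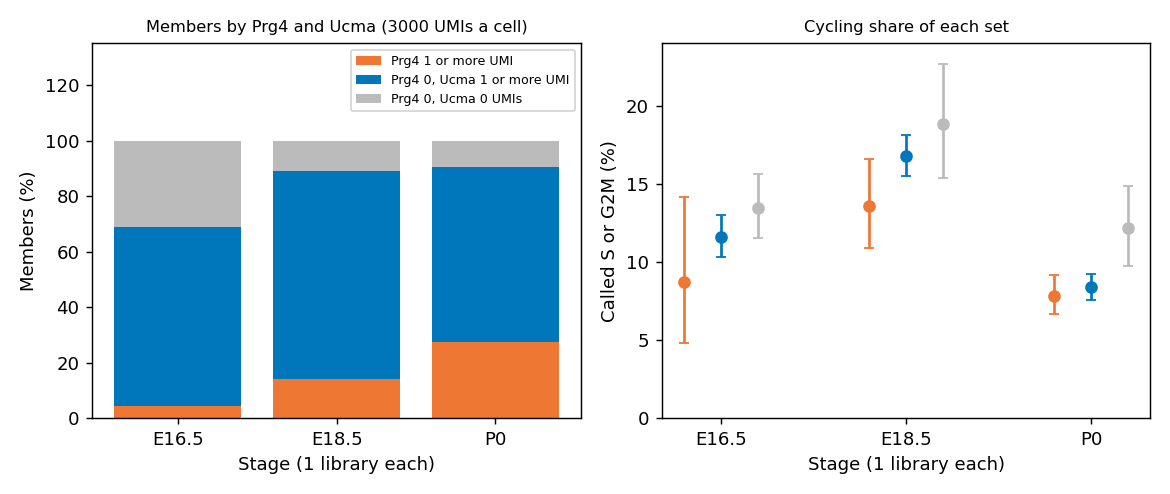
Left, share of Acan-positive chondrocytes in 3 sets by detection of Prg4 and Ucma after thinning each cell to 3000 UMIs, as stacked bars for each stage. Right, percentage of each set called S or G2M, with points for the value and bars for the exact 95% interval. The Prg4 set is 4.43% of members at E16.5 and 27.3% at P0, where Prg4 was also found in more endothelial cells. The set with neither gene has the highest cycling share at each stage, without a test and with intervals that partly overlap.

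Over the genes with 20 CPM and 50 counts in the higher stage, most differed little between stages. Between E16.5 and P0, 185 of 5370 genes (3.45%) were 2-fold or more higher at P0 and 48 (0.894%) were 2-fold or more lower. From E16.5 to E18.5, 63 of 5359 genes (1.18%) were higher and 10 (0.187%) lower, and from E18.5 to P0, 29 of 5347 (0.542%) were higher and 17 (0.318%) lower. The median of all genes was -0.13 on the log2 scale at P0 against E16.5, and -0.05 with cartilage matrix genes left out of the total. Counts of listed genes below are read against those shares, and every list was counted whole. A gene entered through its higher stage, so a gene far under 20 CPM at the other stage counted as different by that floor alone.

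Of 12 measured transcription factors of chondrocytes, 0 differed 2-fold between E16.5 and P0, which at the background share does not set them apart from other genes. Sox9 was 619 CPM (612 to 625) at E16.5, 725 CPM (719 to 731) at E18.5 and 619 CPM (615 to 623) at P0. Sox5 was 175, 163 and 141 CPM, and Sox6 was 103, 116 and 87.5 CPM. The order of the stages thus differed between Sox9, highest at E18.5, and Sox5, highest at E16.5.

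Several matrix genes were higher after E16.5. Of the 12 cartilage collagens measured, 2 were 2-fold or more higher at P0 than at E16.5, Col6a2 and Col6a3, with a list median of 0.39 on the log2 scale. Col2a1 fell just short of the threshold, at 19626 CPM (19590 to 19662) at E16.5, 40937 CPM (40892 to 40981) at E18.5 and 39249 CPM (39215 to 39284) at P0. Its level in endothelial cells, used here to gauge free RNA, was also higher at E18.5 and P0, as given above. Where the Col2a1 UMIs of those cells came from was not tested. Acan, which chose the cells, was 1534, 2510 and 1936 CPM. Col9a1, Hapln1 and Matn1, other genes of the cartilage matrix, were 3219, 1969 and 1317 CPM at E16.5 and 3952, 2001 and 1128 CPM at P0.

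Small leucine-rich proteoglycans, which bind collagen fibrils, were among the genes that were higher. Of 13 proteoglycans and link proteins measured, 5 were 2-fold or more higher at P0 than at E16.5, with a list median of 0.82. Bgn was 1133, 2387 and 2775 CPM over the 3 stages, Fmod was 807, 1609 and 1834 CPM, and Dcn was 351, 696 and 914 CPM. Omd, the osteomodulin of mineralizing tissue, was 170, 341 and 531 CPM, and Chad, which binds chondrocytes to collagen, was 341, 631 and 811 CPM. For each of the 5 the ratio of E18.5 to E16.5 was larger than that of P0 to E18.5.

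Of 15 matrix adaptors and secreted cartilage proteins, 7 were 2-fold or more higher at P0 and the median was 0.69. Ucma was 1352 CPM (1342 to 1361) at E16.5, 3522 CPM (3509 to 3535) at E18.5 and 3569 CPM (3559 to 3580) at P0. Mgp, the matrix Gla protein that holds back mineral, was 2798, 3816 and 6971 CPM, so its increase came mostly after E18.5. Sparc, a collagen-binding protein, was 7114, 13178 and 16360 CPM, and Comp, which joins collagens, was 1086, 2146 and 2354 CPM. Matn2, Clec3a and Itih5 completed the 7.

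Enzymes and chaperones that make this matrix were counted too. Of 17 genes of chondroitin sulfate synthesis and 28 genes of collagen folding and secretion, 0 reached a 2-fold difference between E16.5 and P0. At the background shares given above about as few would be found, so the count does not set these lists apart. The median of the folding list was -0.13, equal to that of all genes.

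Signalling genes of the growth plate were counted by pathway. Of 6 measured genes of hedgehog and PTHrP signalling, 7 of FGF and CNP signalling and 13 fetal growth and imprinted genes, 0 were past 2-fold between E16.5 and P0, a count near the background for lists of this size. H19, an imprinted RNA of fetal tissue, was 3226, 3544 and 3046 CPM and Igf2 was 164, 122 and 136 CPM. In the IGF system 5 of 15 genes were higher at P0, namely the binding proteins Igfbp2, Igfbp3, Igfbp6 and Igfbp7 and the protease Pappa, which cleaves some of the IGF binding proteins. Within the C clusters Igfbp2 was not higher at P0 (log2 difference -0.27, against 1.06 in all members) and Igfbp6 stood at 1.89 against 3.01. Of 22 genes of the TGF-beta and BMP system, Bmp4 was higher and the BMP antagonist Nog lower, at 27.3 CPM at E16.5, 20.2 CPM at E18.5 and 9.0 CPM at P0.

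Wnt modulators, cell cycle genes and histones went both ways. Of 9 Wnt modulators 1 was higher and 1 lower at P0, and of 12 cyclins and CDK inhibitors Cdkn1a was higher (121, 184 and 277 CPM) and Ccne1 lower (23.4, 21.0 and 10.6 CPM). Of 13 histone genes 2 were higher, Hist1h1c and H1f0, and 2 lower, Hist1h1b and Hist1h4d. Of 23 hypoxia and glycolysis genes 2 were higher, Car9 and Ndrg1.

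Of 5 measured resting zone genes, 4 were higher at P0 (Ucma, Gas1, Wif1 and Apoe) and 1 was lower. Gas1, a hedgehog co-receptor, was 116, 145 and 310 CPM. The lower gene was Sfrp5, a Wnt inhibitor, at 22.9, 9.5 and 11.0 CPM. At the other end of the growth plate, 2 of 6 genes of the onset of hypertrophy were higher at P0, the mineral-binding proteins Spp1 (56.4, 75.5 and 189 CPM) and Ibsp (4.1, 6.6 and 25.5 CPM). Both stood far higher in the cells left out by the rule, at 1022 and 113 CPM at P0. Ibsp reached the 20 CPM floor only at P0, so its count as higher was fixed by that floor. Of 4 measured genes of the joint and articular surface 2 were higher at P0, Prg4 and Creb5, and 0 lower. Of 7 marrow niche factors 1 was higher, Spp1, and 0 lower.

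The genes with the largest change, taken over all genes at 100 CPM or more in the higher stage, were led by Prg4. It was 30.3 CPM (28.9 to 31.8) at E16.5, 256 CPM (252 to 259) at E18.5 and 740 CPM (736 to 745) at P0, a ratio of 24.4 (23.3 to 25.6) over the whole span. In endothelial cells it was 15.1, 2.8 and 30.9 CPM, and within the C clusters alone the log2 difference was 4.77 against 4.61 in all members. Msmp followed at 16.4, 27.9 and 131 CPM, then the linker histone Hist1h1c at 28.9, 54.7 and 183 CPM. Tsc22d3, which answers to glucocorticoids, was 71.0, 147 and 288 CPM, and Ctgf, a matricellular growth factor, was 156, 312 and 610 CPM. Srpx2 and Ecm2, both of the matrix, were 34.9 and 38.8 CPM at E16.5 and 142 and 130 CPM at P0.

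Fibrous genes were among them too. Tnmd was 26.9, 68.2 and 109 CPM, Postn was 213, 530 and 723 CPM and Col1a1 was 1057, 2325 and 3567 CPM. Of the lists that mark other cell types, 7 of 9 fibroblast and perichondrium genes, 2 of 3 tendon genes and 3 of 3 osteoblast genes were 2-fold or more higher at P0 than at E16.5. The 3 osteoblast genes are counted in other lists as well, Col1a1 and Col1a2 with the fibroblast genes and Ibsp with the onset of hypertrophy. Of the 8 listed osteoblast genes, the others were under the floor of level and counts. Ibsp itself passed the floor only at P0, so its count as higher was fixed by that floor. The share of members outside the C clusters moved with them. Within the C clusters the log2 difference was 1.53 against 2.03 for Tnmd, 1.21 against 1.76 for Postn, 1.49 against 1.76 for Col1a1 and 1.89 against 3.01 for Igfbp6, which stayed under 100 CPM at each stage. Mgp stood at 1.39 within the C clusters.

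Of the genes at 100 CPM or more with the largest decrease, Nme1, a nucleoside diphosphate kinase, was 438 CPM at E16.5, 256 CPM at E18.5 and 157 CPM at P0. Manf, a chaperone of the endoplasmic reticulum, was 356, 254 and 164 CPM, and the mitochondrial chaperone Hspd1 was 322, 264 and 155 CPM. Phgdh, which opens serine synthesis, was 118, 70.6 and 54.5 CPM. Others were Ndufa4 and Sf3b5, and Ndufab1, Ran and Atp5g1, which fell just short of 2-fold. Of 15 immediate early and stress genes, which digestion can raise, 0 were higher and 1, Hspa1b, was lower at P0.

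**Figure D2:**
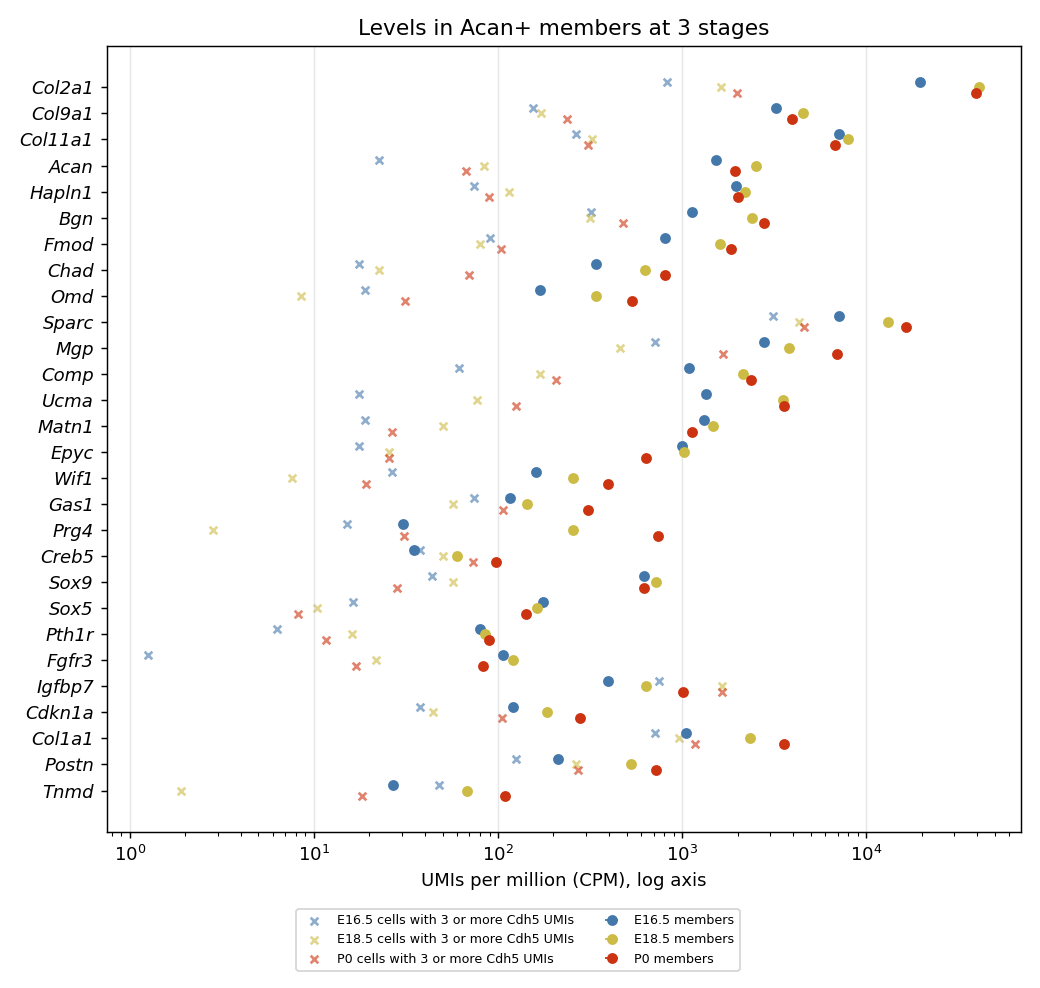
Level in CPM on a log axis of cartilage and other listed genes in Acan-positive chondrocytes at each stage, as points with exact 95% intervals that are mostly narrower than the point. Crosses give endothelial cells with 3 or more Cdh5 UMIs that were not members. Sox9 keeps its level at about 619 CPM at E16.5 and P0, and Prg4 goes from 30.3 to 740 CPM.

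Dividing cells were a minority of the members at every stage. By the deposited phase calls, 439 E16.5 members (12.0%, interval 11.0 to 13.1), 720 E18.5 members (16.9%, interval 15.8 to 18.1) and 643 P0 members (8.96%, interval 8.31 to 9.65) were in S or G2M. The S share was 8.45%, 8.70% and 3.58%, and the G2M share was 3.59%, 8.23% and 5.38%. By these calls the S share was lower and the G2M share higher at P0 than at E16.5. The division genes Mki67 and Top2a, both in the lists taken as scoring genes, were found at 3000 UMIs in 4.12%, 7.71% and 4.89% and in 5.83%, 10.0% and 6.54% of members. In endothelial cells, which also divide and so are no blank for these genes, they were found in 10.1%, 9.76% and 8.98% and in 11.6%, 8.54% and 11.4%. The shares of members put P0 above E16.5, as the G2M calls did and the S calls and the sum of both did not. Cells left out for Ihh or Col10a1 had shares of 4.65%, 9.46% and 6.25%, with an interval at P0 (3.91 to 9.40) that overlapped that of the members. Stromal cells with fewer than 5 Acan UMIs had shares of 30.2%, 24.6% and 21.2%, and at P0 their median was 2686 UMIs in S and 1874 UMIs in G2M against 9871.5 UMIs in G1.

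Cycling members held more RNA, with a median of 20008, 21778 and 21147 UMIs against 14079.5, 16437 and 16317 in G1 members. When every cell was thinned to 3000 UMIs and scored anew, the cycling share of members was 28.8%, 35.1% and 25.4%. Depth and scoring changed in the same step, so which of them moved the absolute shares was not tested. Left out as shallower were 9, 53 and 263 members and 77, 384 and 2546 of the cells with fewer than 5 Acan UMIs, of which the rest at P0 had a deposited share of 15.3%. The order of the stages and of the 3 kinds of cell stayed as with the deposited calls, and 82.1%, 80.5% and 82.6% of members got the same call. Most members were G1 by the deposited calls, which makes such shares high. In the same cells the deposited cycling share was 12.1%, 16.6% and 8.59%, so many deposited G1 members were newly called cycling. The comparisons of phases below use the deposited calls and were not run on the new ones. Within the C clusters the deposited shares were 10.1%, 15.0% and 6.88%.

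The sets by Prg4 and Ucma were counted for cycling cells without a test. The Prg4 set was at 8.70%, 13.6% and 7.83%, the Ucma set at 11.6%, 16.8% and 8.38%, and the set with neither at 13.5%, 18.8% and 12.2%. The order of the sets was the same at each stage, but the interval of the Prg4 set covered the value of the Ucma set at E16.5 (4.84 to 14.2) and at P0 (6.66 to 9.14). At E18.5 the interval of the set with neither gene also covered the value of the Ucma set.

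**Figure D3:**
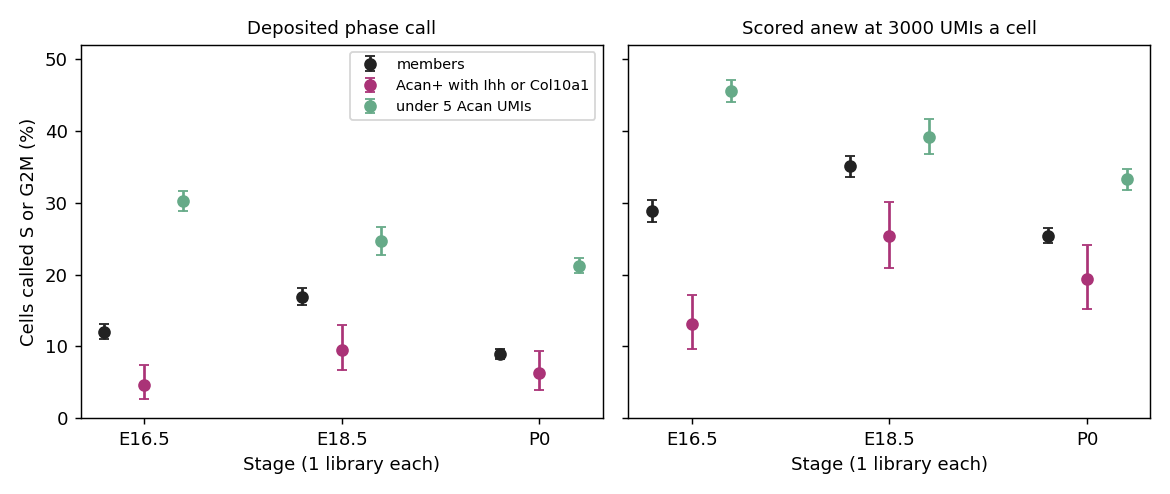
Percentage of cells called S or G2M at each stage among Acan-positive chondrocytes, cells left out for Ihh or Col10a1, and stromal cells with fewer than 5 Acan UMIs, by the deposited calls (left) and after thinning to 3000 UMIs and scoring anew (right). Bars are exact 95% intervals. Members are highest at E18.5 in both panels, at 16.9% and 35.1%.

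To ask how chondrocyte genes differ with the cell cycle, UMIs were summed per library and phase and S or G2M members were compared with G1 members, with the library as a block, by edgeR's quasi-likelihood test with Benjamini-Hochberg adjustment. The 3 libraries are the replicates, and they are also the 3 stages. The 97 genes of Seurat's own S and G2M lists, in mouse spelling, were taken as those that scored the phases. Whether the study used the same lists was not checked, so some scoring genes may remain among the counted genes. The 97 genes, and Acan, Ihh and Col10a1, were left out of all counts, but the calls came from the same counts as the other genes. Of 12420 genes, 1804 (14.5%) rose and 1660 (13.4%) fell in S, and 2619 (21.1%) rose and 2835 (22.8%) fell in G2M. Without the E18.5 library 1080 rose and 585 fell in S and 1775 rose and 1647 fell in G2M, and without the P0 library 656 fell in S. The sign was the same in all 3 libraries for 3422 of the 3464 genes called in S and 5170 of the 5454 called in G2M. With every cell thinned to 3000 UMIs, 816 rose and 584 fell in S, and 1211 rose and 1275 fell in G2M. Relative to plain CPM, the normalization moved the median of all genes by -0.07 in S and -0.09 in G2M. The cycling share was lower within the C clusters (10.1%, 15.0% and 6.88%) than in all members (12.0%, 16.9% and 8.96%). The mix of clusters thus differed between phases, and its part in the changes below was not tested. Within the C clusters 1536 genes rose and 1201 fell in S, and 2346 rose and 2509 fell in G2M. Changes below are over all members unless another set is named.

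The genes with the largest rise, at 50 CPM or more, mostly serve replication and division. In S they were Pclaf, a clamp-binding replication factor (log2 change 5.86), the histones Hist1h1b (4.28), Hist1h2ap (4.10) and Hist1h2ae (3.57), Ccna2 (3.72), Lig1 (3.61), Prc1 (3.55), Smc2 (3.34), Stmn1 (3.17) and Spc24 (3.13). In G2M they were Ccnb1 (7.22), Ccna2 (6.80), Prc1 (6.78), Racgap1 (6.07), Hist1h1b (5.97), Hist1h2ap (5.81), Cdkn3 (5.71), Pclaf (5.51), Knstrn (5.49) and Hist1h2ae (5.30). Pclaf was 5.1, 3.2 and 4.0 CPM in G1 members at E16.5, E18.5 and P0 and 229, 271 and 246 CPM in S members.

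Promoters of 4 of these genes are shown. They were picked in each contrast by small p among the named genes that rose and had a promoter window. A phase-linked promoter code is well described, with E2F sites for S and CCAAT boxes with CHR elements for G2M. By the levels given below, Lig1 was highest in S, and Smc2, Ccnb1 and Racgap1 were highest in G2M. The sequences are RefSeq windows of 250 bases before to 50 after the start on GRCm38.p6, read in the direction of the gene, with capitals marking matches on either strand. Smc2, a condensin subunit, lies on the + strand with its window at chr4:52438971-52439270. Lig1, the ligase that joins replicated fragments, lies on the + strand at chr7:13276925-13277224, the first of 3 entries. Ccnb1, the mitotic cyclin, lies on the - strand at chr13:100786437-100786736, and Racgap1, needed for cell cleavage, on the - strand at chr15:99651607-99651906.
Smc2: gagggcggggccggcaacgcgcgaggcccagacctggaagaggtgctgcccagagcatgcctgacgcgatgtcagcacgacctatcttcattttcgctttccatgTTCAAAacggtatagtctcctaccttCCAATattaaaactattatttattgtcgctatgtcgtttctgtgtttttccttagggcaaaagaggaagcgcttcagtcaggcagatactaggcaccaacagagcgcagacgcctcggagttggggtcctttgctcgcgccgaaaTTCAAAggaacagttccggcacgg
Lig1: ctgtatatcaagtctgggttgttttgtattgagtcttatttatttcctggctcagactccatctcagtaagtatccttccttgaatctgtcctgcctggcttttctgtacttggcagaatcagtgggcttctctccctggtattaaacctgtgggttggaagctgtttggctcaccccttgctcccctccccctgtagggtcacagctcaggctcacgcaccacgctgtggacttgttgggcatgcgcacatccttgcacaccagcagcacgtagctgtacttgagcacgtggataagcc
Ccnb1: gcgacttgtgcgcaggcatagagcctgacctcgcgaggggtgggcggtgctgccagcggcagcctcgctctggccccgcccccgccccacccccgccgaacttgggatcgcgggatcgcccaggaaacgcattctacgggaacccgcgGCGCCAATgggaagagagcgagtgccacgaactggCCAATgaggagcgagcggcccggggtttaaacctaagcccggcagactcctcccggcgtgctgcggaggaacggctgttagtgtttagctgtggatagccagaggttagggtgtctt
Racgap1: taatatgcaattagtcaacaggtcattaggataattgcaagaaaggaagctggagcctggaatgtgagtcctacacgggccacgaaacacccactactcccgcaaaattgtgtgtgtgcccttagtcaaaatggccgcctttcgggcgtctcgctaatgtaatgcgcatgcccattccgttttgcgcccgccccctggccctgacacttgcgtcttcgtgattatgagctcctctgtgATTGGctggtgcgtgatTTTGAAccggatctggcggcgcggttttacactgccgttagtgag

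The motifs searched were TTCCCGC and TTGGCGC for E2F, TTTGAA and TTCGAA for the CHR, and CCAAT, each on both strands. Among all 32851 promoter windows, 4.60% held TTCCCGC, 2.45% TTGGCGC, 17.9% TTTGAA, 1.56% TTCGAA and 37.4% CCAAT. Ccnb1 held TTGGCGC at -102, overlapping a CCAAT at -99, and another CCAAT at -67 from the start. Racgap1 held CCAAT at -12 and TTTGAA at 5, Smc2 held TTTGAA at -145 and 26 and CCAAT at -119, and Lig1 held no match in this window. Of the 6 named G2M genes with a window, 5 held CCAAT and 3 TTTGAA, and of the 4 named S genes, 3 and 2 did. TTCCCGC and TTGGCGC were each in 1 of the 4 S genes and 1 of the 6 G2M genes. In these counts a gene with several windows, such as Lig1, held a motif when any of its windows did. The shares among all promoter windows are per window, so the 2 are not on the same footing.

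Their levels followed the phases. Ccnb1 was 0.9, 1.4 and 1.4 CPM in G1 members over the 3 stages, 4.7, 3.6 and 3.4 CPM in S members and 185, 237 and 196 CPM in G2M members. Racgap1 was 1.9, 2.4 and 2.4 CPM in G1, 16.9, 24.4 and 16.3 CPM in S and 150, 174 and 166 CPM in G2M. Lig1 was highest in S, at 148, 190 and 201 CPM, against 15.2, 14.8 and 12.3 CPM in G1 and 49.2, 49.5 and 43.7 CPM in G2M. Smc2, although named for its rise in S, was 10.8, 10.5 and 8.8 CPM in G1, 94.8, 113 and 111 CPM in S and 297, 295 and 276 CPM in G2M. The 4 genes were picked for their rise in these same contrasts, so the distance between the phases came with the choice.

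Several cartilage matrix genes fell in dividing members, by modest amounts. Of 13 cartilage collagens 7 fell in S (list median -0.23) and 8 in G2M (median -0.40) and 0 rose, beside 13.4% and 22.8% of all genes that fell. Col2a1 was 20171, 42252 and 40193 CPM in G1 members, 16985, 37155 and 33278 CPM in S members and 15940, 34502 and 29976 CPM in G2M members. It fell by 0.30 on the log2 scale in S (SE 0.03, edgeR adjusted p = 6.7e-06) and by 0.45 in G2M (SE 0.03, adjusted p = 1.1e-07). In the C clusters alone the change was -0.16 in S (adjusted p = 0.028) and -0.21 in G2M (adjusted p = 0.0037). Col9a1, Col9a2, Col9a3, Col11a1, Col11a2 and Col27a1 also fell in both phases, and of these Col9a1, Col9a3, Col11a1 and Col11a2 lost their call in S within the C clusters.

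Omd fell most among the proteoglycans. It was 177, 381 and 570 CPM in G1 members and 62.6, 121 and 115 CPM in G2M members, a log2 change of -1.93 (SE 0.14, edgeR adjusted p = 2.7e-07). Chad fell by 0.39 in S and 0.87 in G2M, Fmod by 0.33 and 0.46, and Lum by 0.24 and 0.47. In S, 9 of 14 proteoglycans and link proteins fell and 1, Vcan, rose, and in G2M 7 fell and 2 rose, beside the same shares of all genes. Bgn, among those that fell in both phases, was at -0.16 in S (edgeR adjusted p = 0.19) and -0.11 in G2M (adjusted p = 0.31) within the C clusters. Vcan, the versican of loose matrix, rose by 0.37 in S and 0.68 in G2M, and Prelp went from -0.62 in S to 0.31 in G2M.

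Of 15 matrix adaptors and secreted proteins, 7 fell in S and 12 in G2M. Cytl1 changed by -0.70 and -1.07, Comp by -0.44 and -0.76, and Mgp by -0.63 and -0.40. Ucma passed the test in G2M only, at -0.58 (edgeR adjusted p = 6.7e-05), though the difference between the phases was not tested. Mia, a secreted cartilage protein, changed by -0.70 in G2M. Of 23 genes of chondroitin sulfate synthesis 4 fell and 0 rose in S, and 11 fell and 2 rose in G2M. Of 28 genes of collagen folding 6 fell and 1 rose in S, and 16 fell and 3 rose in G2M, beside 13.4% and 22.8% of all genes that fell. The S count of the chondroitin list is near that share. Xylt1, which starts the sugar chain, changed by -0.66 in G2M, whereas the chaperone Hsp90b1 rose by 0.64.

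Transcription factors were among the genes that fell. Of 14 chondrocyte transcription factors 7 fell and 1 rose in each of S and G2M, beside 13.4% and 22.8% of all genes that fell. These changes are over the members of all clusters, whose mix differed between phases. Sox9 was 641, 746 and 630 CPM in G1 members and 462, 612 and 534 CPM in G2M members, changing by -0.31 in S (SE 0.06, edgeR adjusted p = 0.0021) and -0.42 in G2M (SE 0.06, adjusted p = 1.2e-04). Sox5 and Sox6 changed by -0.55 and -0.35 in G2M. Foxa3, a factor of hypertrophy, changed by -0.44 and -1.06, and Foxa2 by -0.83 in G2M. The factor that rose in G2M was Barx1 (0.96), and the factor that rose in S was Zfp219 (0.44).

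Of 8 resting zone genes 2 fell in S and 3 in G2M, and of 6 joint genes 3 fell and 1, Tnc, rose in S and 3 fell in G2M, beside 13.4% and 22.8% of all genes that fell. Wif1 changed by -0.51 in S and -0.81 in G2M. Pthlh changed by -0.45 in S, and Ucma, Grem1 and Wif1 were the 3 of 8 resting zone genes that fell in G2M. In the joint list Gdf5 changed by -0.41 and -1.19, from 25.02, 15.63 and 15.74 CPM in G1 to 9.40, 6.43 and 9.28 CPM in G2M, and Prg4 by -0.37 and -0.77. The counts of signalling lists are read beside the shares of all genes, 14.5% up and 13.4% down in S and 21.1% up and 22.8% down in G2M, and several lie near them. In the TGF-beta and BMP list 10 of 30 genes fell and 1 rose in S, and 14 fell and 2 rose in G2M. In the IGF list 3 of 17 fell and 2 rose in S, and 8 fell and 2 rose in G2M, among them the growth hormone receptor Ghr (-0.69), the insulin receptor Insr (-0.64) and Pappa (-1.25). In the FGF and CNP list 4 of 14 fell and 0 rose in S, and 7 fell and 1, Nppc (1.26), rose in G2M. In the hedgehog and PTHrP list 5 of 11 fell and 0 rose in S, and 4 fell and 2 rose in G2M, among them the effector Gli1 (0.28). Of 15 Wnt modulators 2 fell and 2 rose in S, and 5 fell and 2 rose in G2M, with the receptor Fzd9 at -0.85 and Ror2 at 0.55. Dkk3, the other that rose in G2M (0.32), stood at -0.29 within the C clusters. Bmp2, a signal of chondrocyte maturation, changed by -0.82 and -1.29, and was 91.4, 98.4 and 107 CPM in G1 members and 36.2, 46.2 and 47.4 CPM in G2M members.

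Of 9 genes of the onset of hypertrophy 5 fell and 1 rose in S, and 4 fell and 1 rose in G2M. Beside them, 13.4% of all genes fell and 14.5% rose in S, and 22.8% fell and 21.1% rose in G2M. In the osteoblast list 1 of 6 fell and 1 rose in each phase, near the shares of all genes. Spp1 changed by -1.38 in S and -0.78 in G2M, Ibsp by -1.50 and -2.09, and Pth1r by -0.21 and -0.26. Alpl, the phosphatase of mineralizing cells, rose by 0.74 and 0.71 in all members but changed by -0.55 and -0.77 within the C clusters.

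Of 18 cyclins, CDK inhibitors and related regulators, 10 rose and 2 fell in S, and 9 rose and 6 fell in G2M. Of all genes, 14.5% rose and 13.4% fell in S, and 21.1% rose and 22.8% fell in G2M. The counts of genes that fell are not far from those shares. Ccnd1, the cyclin D1 of G1 progression, was 84.8, 65.7 and 58.7 CPM in G1 members, 138, 127 and 119 CPM in S members and 68.7, 44.9 and 37.1 CPM in G2M members, changing by 0.82 and -0.62. Ccnd2 passed the test in G2M only, at -1.30 (edgeR adjusted p = 9.7e-10), and Ccnd3 likewise at -0.73. The inhibitor Cdkn1a (p21) fell by 0.45 in S and 0.71 in G2M. By contrast Cdkn1b (p27) rose by 0.88 in G2M, from 36.4, 32.2 and 32.8 CPM to 96.6, 56.3 and 55.5 CPM. Cdkn2c (p18) rose by 1.64 in S and 4.13 in G2M.

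All 19 measured histone genes rose in G2M, and in S 12 rose and 3 fell, Hist1h1c, Hist1h2bc and the variant H3f3b. Beside them, 21.1% of all genes rose in G2M, and 14.5% rose and 13.4% fell in S. Hist1h2bc and Hist1h1c, which yield polyadenylated transcripts outside S as well, changed by -1.80 and -0.89 in S and by 1.22 and 1.22 in G2M.

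Of 15 immediate early and stress genes, 13 fell in S and 13 in G2M, beside 13.4% and 22.8% of all genes that fell. Fos was 2544, 3155 and 3032 CPM in G1 members and 1431, 2582 and 1837 CPM in G2M members. Btg2, an antiproliferative early gene, was 966, 813 and 775 CPM in G1 and 311, 472 and 321 CPM in G2M, a change of -1.31 (SE 0.12, edgeR adjusted p = 3.9e-06). Among genes at 50 CPM or more, the largest falls in S after Hist1h2bc and Spp1 were Kdm5b (-1.25), Errfi1, Hist1h1c, Sat1, Nupr1, Atf3, Sqstm1 and Gem. Those in G2M were Omd, Ogn (-1.56), Calml3 (-1.39), Nr4a2 (-1.37), Btg2, Ccnd2, Trib1 (-1.29), Bmp2, Rcan1 (-1.29) and Ctgf (-1.27).

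Genes of glycolysis went in both directions. Aldoa, a glycolytic enzyme, changed by -0.56 in S and -1.15 in G2M, and Hk2 by -0.33 and -0.78, while Gapdh rose by 0.22 and Tpi1 by 0.23 in G2M. Of 28 hypoxia and glycolysis genes 3 rose and 5 fell in S, and 8 rose and 8 fell in G2M, near the shares of all genes. Of 16 fetal growth and imprinted genes 1 rose and 6 fell in S, and 3 rose (Cdkn1c, Grb10 and Igf2bp1) and 9 fell in G2M. The shares of all genes were 14.5% up and 13.4% down in S, and 21.1% up and 22.8% down in G2M. The imprinted genes Meg3 and Plagl1 changed by -0.31 and -0.38 in S and by -0.69 and -0.88 in G2M, and H19 by -0.54 and Igf2 by -0.37 in G2M. Ptn, a heparin-binding growth factor, was 116, 145 and 211 CPM in G1 members, 217, 353 and 326 CPM in S members and 368, 443 and 584 CPM in G2M members. It rose by 0.88 and 1.48, and its relative Mdk by 0.53 and 0.47.

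Markers of other cells were followed over the phases. At least 1 UMI of the endothelial, hematopoietic or muscle lists was found in 11.9% of G1, 20.5% of S and 21.4% of G2M members at E16.5, 10.2%, 16.2% and 17.4% at E18.5, and 21.6%, 31.9% and 31.9% at P0. These shares are at unequal depth, since cycling members held more UMIs, whereas the summed levels that follow are per UMI. The 7 muscle genes summed to 0.0032% of UMIs in G1, 0.0060% in S and 0.016% in G2M at E16.5, and the 6 endothelial genes to 0.00026%, 0.00095% and 0.0026%. The endothelial genes were at 0.00023%, 0.00016% and 0.00067% at E18.5 and at 0.0011%, 0.00034% and 0.0019% at P0, so S was below G1 at those stages. At E18.5 the muscle genes were at 0.0012%, 0.0018% and 0.0013%, and at P0 at 0.0033%, 0.0039% and 0.0042%. In G2M 4 of 5 endothelial, 5 of 7 muscle and 3 of 5 tendon genes rose, beside 21.1% of all genes. In S 0 of 5 endothelial, 4 of 7 muscle and 3 of 5 tendon genes rose, beside 14.5% of all genes. Of 14 marrow niche factors 6 rose and 5 fell in G2M, beside 21.1% and 22.8% of all genes. Cxcl12 (1.09), Kitl (1.58), Vcam1 (1.23) and Igf1 (0.54) were among those that rose, with Ptn and Mdk, and Angpt1, Igf2, Spp1, Dlk1 and Tgfb1 fell. Within the C clusters Cxcl12 stood at 0.34 (edgeR adjusted p = 0.40) and Igf1 at 0.26 (adjusted p = 0.34), while Kitl stood at 2.13 (adjusted p = 5.3e-05). The tendon genes Tnmd and Thbs4 rose in both phases over all members and were below 0 within the C clusters. In the 3173, 3775 and 5562 members without any such UMI (87.0%, 88.7% and 77.5%), 1645 genes rose and 1357 fell in S, and 2405 rose and 2588 fell in G2M.

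**Figure D4:**
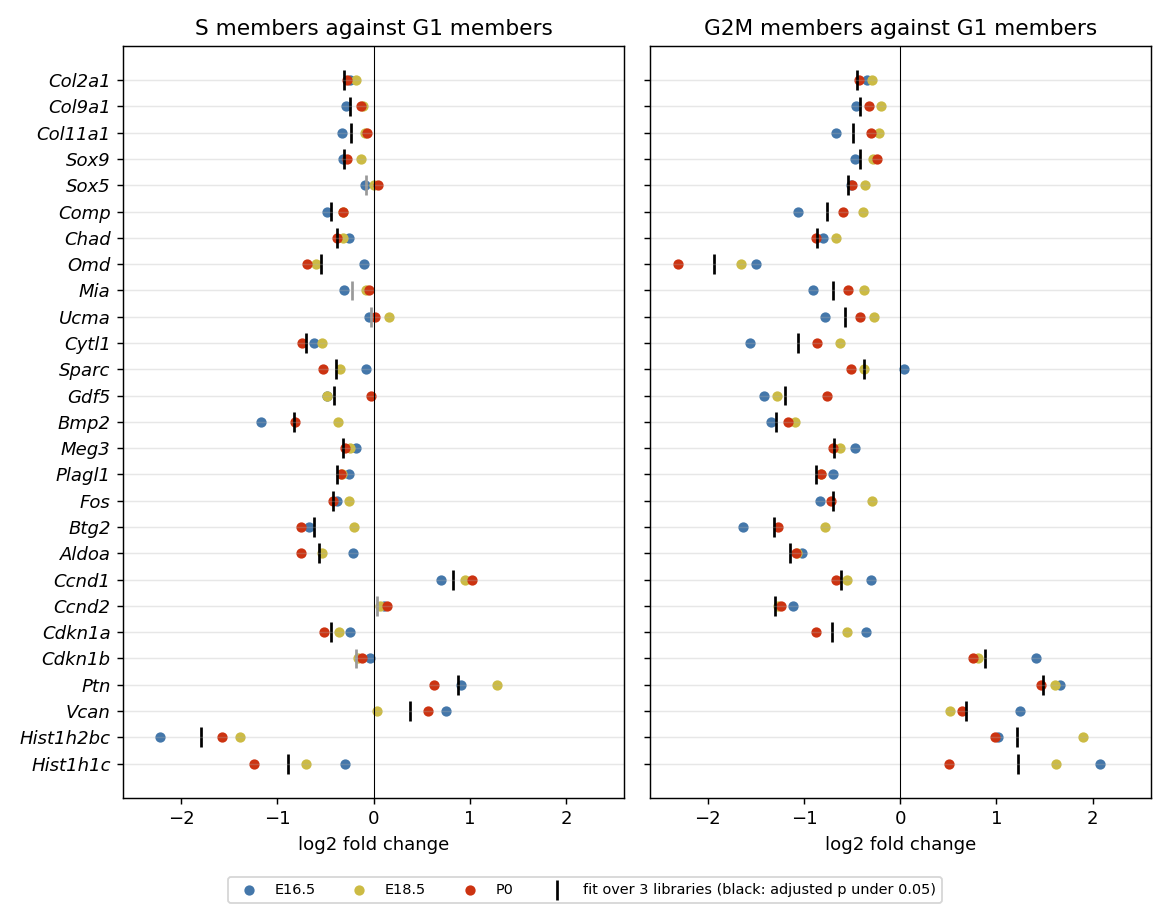
Log2 fold change of S members (left) and G2M members (right) against G1 members for matrix, signalling and cell cycle genes. Points are the 3 libraries, and the tick is the edgeR fit over them, black where the adjusted p was under 0.05. Omd (-1.93) is the lowest of the plotted genes in G2M, and Hist1h2bc goes from -1.80 in S to 1.22 in G2M.

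The antibody libraries gave a readout apart from the RNA. CD73, an ecto-nucleotidase of stromal cells, took 79.4%, 78.5% and 48.2% of the antibody counts of members at E16.5, E18.5 and P0, against 54.8%, 63.2% and 24.97% in stromal cells with fewer than 5 Acan UMIs. Its mean count per cell was 50.1, 35.4 and 32.9 in members and 56.7, 134 and 30.4 in those other cells, while its median count was 33, 15 and 20 in members and 13, 9 and 11 in those other cells, so share and median were higher in members and the mean was not at E16.5 and E18.5. The mean of Ly6AE (Sca-1) was lower in members at each stage, at 4.78, 7.09 and 25.5 counts per cell against 15.4, 54.6 and 66.6. CD140a (Pdgfra), which marks mesenchymal progenitors, was 4.53, 1.33 and 4.13 against 20.9, 9.71 and 9.76, and the endothelial protein CD31 was 2.83, 1.19 and 5.51 against 9.92, 13.8 and 14.7. These differences lie in the means. The median count of Ly6AE was 4, 4 and 15 in members and 4, 5 and 15 in the other cells, that of CD31 was 2, 1 and 3 against 1, 1 and 3, and that of CD140a was 2, 0 and 2 against 8, 1 and 3. More members than other cells carried CD31 at E16.5 (80.4% against 78.0%) and at P0 (95.8% against 88.6%). Only CD140a was lower in members by both mean and median at every stage, over 1 library per stage and without a test. Even so, more members than other cells carried CD140a at P0 (89.5% against 85.2%).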

How the data were processed

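Stromal CD45-Ter119- cells of E16.5, E18.5 and P0 mice were profiled with 1 mRNA and 1 antibody library per stage. The authors used Cell Ranger 3.1.0 with an mm10 reference, R 4.0 and Seurat 3.1.5, and deposited raw UMI counts (20275 genes) and raw antibody counts (29 antibodies) per cell, along with a cell table of library, type, phase, cluster code, mitochondrial share and cell cycle scores. The deposited score columns, from Seurat, decided the phase calls. The mitochondrial column is deposited as a fraction of UMIs. The authors kept genes found in enough cells and removed cells with the most UMIs or genes in each sample as likely doublets, cells with high mitochondrial shares and cells with few UMIs.

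Members were found from the raw counts, and CPM was computed from summed counts with exact Poisson intervals, shares with Clopper-Pearson intervals. Phase sums (9, from 3 libraries) were tested with edgeR 4.0.16 in R 4.3.3 (TMM, library as block, 4 residual degrees of freedom, threshold 0.05). The libraries pair the phases because G1, S and G2M cells of a stage come from the same library. The block takes out the level of each library. P-values therefore measure how evenly the difference between phases held over these 3 libraries only. The script was tested on simulated data with known changes, drawn from the G1 counts of each library. The simulation had no phase calls made from the same counts and no change of cell mix between phases. It therefore cannot show how either affects the comparisons of phases. DESeq2 1.42.0 was an alternative, and numpy 2.4.6, pandas 2.3.3, scipy 1.17.1, scanpy 1.11.5 and matplotlib 3.10.9 under Python 3.11.15 did the rest.

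Named genes were all genes of 29 lists described by count, plus the 10 genes changed most in each direction, at 100 CPM for stages and 50 CPM for phases. The members and lists were chosen with earlier results of these data known. Whole-series libraries of adult and blood progenitor cells were not analysed here. Some genes that the naming rule picked are not reported here.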

Additional observations from a re-analysis of the deposited data

Results flagged for a closer look

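Some listed genes moved in opposite directions in different stages when cycling members were compared with G1 members, each by at least 1.5-fold with counting intervals clear of no change. The differences between stages were not tested, since each stage is 1 library. Values are log2 changes of CPM within a library. In S, Apoe, a lipid carrier, was 0.73 at E16.5, -1.44 at E18.5 and -0.94 at P0. The collagen Col22a1 was 1.01 at E16.5 and -3.19 at E18.5, and Itih5 was 1.08 at E16.5 and -0.72 at E18.5. Wnt4 was 0.63 at E16.5, -0.66 at E18.5 and -0.89 at P0.

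In G2M, Apoe was 1.68 at E16.5 and -0.73 at E18.5. Fgf18 was 0.67 at E16.5, -1.14 at E18.5 and -1.74 at P0, and Fgf9 was 1.18 at E18.5 and -1.84 at P0. Hhip, a hedgehog-binding protein, was 0.63 at E16.5 and -0.62 at P0, and Sfrp5 was 0.93 at E16.5 and -0.81 at P0. Lepr was 0.76 at E18.5 and -1.02 at P0. Msmp was -2.21 at E16.5, 1.76 at E18.5 and -3.85 at P0, and the muscle gene Myog was 2.37 at E16.5 and -1.99 at E18.5. Muscle transcripts were higher in the G2M members of E16.5 than of the other stages (0.016% of UMIs), and their part in these values was not tested.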

How the results depend on the processing

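The share of stromal cells that met the rule at E16.5, E18.5 and P0 was 36.1%, 57.5% and 41.9% with 10 or more Acan UMIs, 41.1%, 57.8% and 46.7% with 0 UMIs of Ihh and Col10a1, and 21.5%, 50.4% and 35.2% after thinning to 3000 UMIs. It was 68.0% at E18.5 and 61.8% at P0 among cells with 5000 UMIs or more, 49.6% at P0 without the 5% of cells with the most UMIs, and 40.5%, 55.1% and 39.4% for the C clusters, a setting chosen after seeing the data. The cycling share was 9.94% at E16.5 with the rule after thinning, and 10.5%, 15.8% and 8.02% without the deepest cells. It was 10.1%, 15.0% and 6.88% in the C clusters. After thinning to 3000 UMIs and scoring anew it was 28.8%, 35.1% and 25.4%. Genes lower at P0 than at E16.5 numbered 86 without mitochondrial, ribosomal and hemoglobin genes in the total.

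Without the library as a block in the paired design (no replicate block), 724 genes rose and 99 fell in S, and 1267 rose and 784 fell in G2M. Leaving out each library in turn gave 1080 to 1750 genes up and 585 to 1494 down in S, and 1775 to 2646 up and 1647 to 2542 down in G2M. The lowest counts came without E18.5, and without P0 656 fell in S. Thinning gave 816 up and 584 down in S, and 1211 up and 1275 down in G2M, from fewer UMIs.

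DESeq2, other size factors and no filter on low counts stayed within 1.5 times of each count of phase calls, as did 10 or more Acan UMIs, cells with 5000 UMIs or more and leaving out the deepest cells. The setting with 0 UMIs of Ihh and Col10a1 was not run for the phases. Within the C clusters Igfbp2 reversed to -0.27 between stages, and in S Alpl (-0.55), Thbs4 (-0.41) and Tnmd (-0.19) reversed. In G2M so did Alpl (-0.77), Ccne1 (-0.64), Col3a1 (-0.10), Dkk3 (-0.29), Thbs4 (-0.015) and Tnmd (-0.68). The mean log-ratio of antibody counts reversed the difference of members from other stromal cells for CD73 at E18.5 (-0.11) and for CD48 at E18.5 (-0.0058) and P0 (-0.0029). The causes were not tested. With 1 library per stage, no stage difference can be told apart from a library difference.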
